A study of Mus musculus with 18 samples.

Results

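The 8 genes described here are Ctnna3, Uchl1, Dtl, Ttc7, Ogdhl, Ccdc192, Cdnf and Narf, out of 46725 genes counted in mouse skeletal muscle. They were chosen by their measured levels, because their RNA level differed strongly between HSA-LR and wild-type (WT) mice and moved most of the way back in HSA-LR mice given Pip6a-PMO, with no numeric threshold. The size of that difference and of its return are therefore the reason these genes are shown and not a result. The choice did not use the difference between the muscles of WT mice, or the levels of genes that work with or lie next to each of the 8. Values and calls of single exons come from the same comparisons as the choice and are given as a description. Poly(A) RNA of gastrocnemius and of quadriceps was sequenced from mice of the fvb strain aged 20 weeks, in 18 libraries. Libraries of both muscles that carry the same group and number are called 1 mouse below. The study's text has both muscles of the same animals for the treated group, and for the others the numbers in the labels were read alike. The 3 groups were untreated WT mice, untreated HSA-LR mice, and HSA-LR mice listed with the agent PIP6a-PMO (called treated below), with injections of the conjugate or of saline into a vein. The dose and the time from injection to sampling are not in the labels. Each group gave 3 libraries per muscle.

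HSA-LR mice carry a transgene of human skeletal actin with a long CTG repeat, which is transcribed in skeletal muscle only, so that other tissues of the mouse are not a model of the disease. In myotonic dystrophy, RNA with expanded CUG repeats collects in nuclear foci and binds the splicing regulator MBNL1, which leaves fewer free molecules for its normal targets. Pip6a-PMO is a morpholino oligomer of CAG repeats joined to a cell-penetrating peptide, and it binds the repeat RNA. The 8 genes have no known common pathway. Their products lie at cell junctions (Ctnna3), in the ubiquitin system (Uchl1, Dtl), in a membrane lipid kinase complex (Ttc7), in mitochondria (Ogdhl), in the endoplasmic reticulum (Cdnf) and at the nuclear lamina (Narf), and little is known of Ccdc192.

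Total counts ranged from 109483236 to 143135976 in the gastrocnemius and from 98916844 to 130717686 in the quadriceps. Levels are given as CPM, counts per a common library size, scaled within each muscle by TMM. By its label, WT mouse 2 was female and all others were male, but the level summed over 4 Y-linked genes (Ddx3y, Eif2s3y, Kdm5d and Uty) was 153 and 189 CPM in WT mouse 2 and 1.13 and 1.45 in WT mouse 3 (gastrocnemius and quadriceps), against 133 to 189 CPM in all others. The libraries labelled WT mouse 2 and 3 thus went against their listed sex, while both stayed within the WT group. With either of them left out, all 8 genes were still called between HSA-LR and WT mice in both muscles. A gene was called at an adjusted P under 0.1 in the quasi-likelihood test of edgeR, with P values adjusted over all genes tested by the method of Benjamini and Hochberg.

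All 8 genes were called between HSA-LR and WT mice in both muscles, which the choice fixed, 6 of them higher and 2 of them lower in HSA-LR mice. In the gastrocnemius, 15.5% of the 15625 genes tested were called (8.60% higher and 6.94% lower), and in the quadriceps 20.3% of 15574 (11% higher and 9.31% lower). Between treated and HSA-LR mice, 8 of 8 were called in both muscles, beside 10% of all genes in the gastrocnemius and 13.8% in the quadriceps. In the quadriceps, Dtl was no longer called between treated and HSA-LR mice without HSA-LR mouse 1 or 2. Between treated and WT mice, 3 of the 8 were called in the gastrocnemius (Ctnna3, Uchl1 and Ccdc192), beside 1.04% of all genes, and 4 in the quadriceps (the same 3 and Ogdhl), beside 1.41%. Each of these was still higher in treated than in WT mice. The count of 3 in the gastrocnemius fell to 1 (Uchl1) without WT mouse 2 or without treated mouse 2, and was 2 without WT mouse 3, without any 1 of the HSA-LR mice or without treated mouse 1 or 3. In the quadriceps, Ctnna3 was the gene that dropped out when WT mouse 1 or 3, HSA-LR mouse 1 or 2, or treated mouse 1 or 2 was left out. In bulk muscle, a change in the number of cells that express a gene and a change in RNA per cell cannot be told apart.

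**Figure D1:**
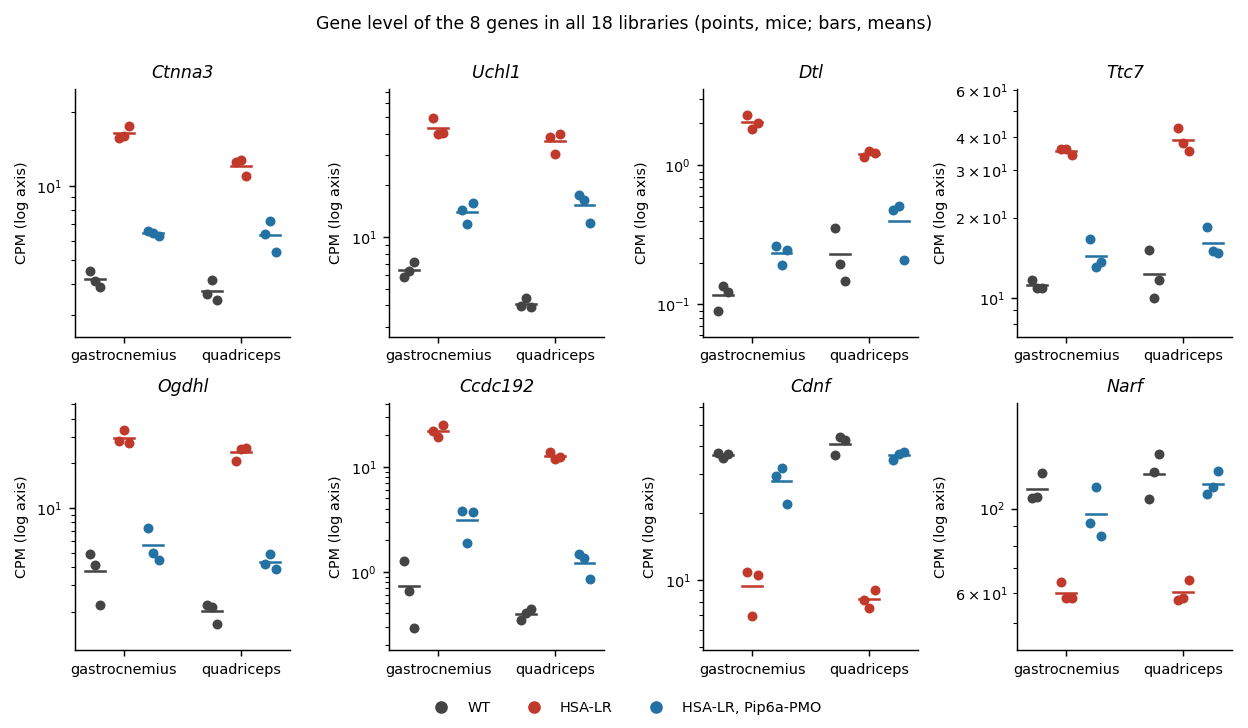
Level of the 8 genes in each of the 18 libraries, in CPM on a log axis, by muscle and group. Points are mice and bars are group means (n = 3). The HSA-LR mice lie above the WT mice for 6 genes and below them for Cdnf and Narf, which the choice fixed. The share of all genes whose groups lie apart was not counted. Treated mice lie between the other groups or next to the WT mice.

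Levels between genes can be compared only per length of counted exon. In WT gastrocnemius, Narf had the highest level with 23.5 CPM per kb of exon bins, followed by Cdnf (11.7), Uchl1 (3.95), Ttc7 (1.77), Ogdhl (1.09), Ctnna3 (0.579), Ccdc192 (0.544) and Dtl (0.00850). In HSA-LR gastrocnemius the order was Uchl1 (26.5 CPM per kb), Ccdc192 (16.4), Narf (12.5), Ogdhl (8.67), Ttc7 (5.62), Cdnf (3.04), Ctnna3 (2.27) and Dtl (0.150). Ctnna3 and Ccdc192 were neighbours in the WT order whose mice overlapped, as were Cdnf and Ctnna3 in the HSA-LR order, while Ccdc192 and Uchl1 passed both genes that led in WT mice. Dtl stayed at the bottom in every group, and its values rest on few counts.

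Ctnna3 encodes alpha-T-catenin, which joins cadherin junctions to actin and is best known from the intercalated discs of the heart. The gene (ENSMUSG00000060843.11) spans chr10:63430098-65003667 on the plus strand of GRCm38. Its level in the gastrocnemius was 4.52, 4.12 and 3.90 CPM in the WT mice, 15.6, 15.9 and 17.6 CPM in HSA-LR and 6.56, 6.45 and 6.27 CPM in treated animals. In the quadriceps the values were 3.64, 4.16 and 3.46 CPM in WT, 12.49, 12.75 and 11.02 CPM in HSA-LR and 6.42, 7.19 and 5.40 CPM in treated mice. The 3 groups did not overlap in either muscle, so that every treated mouse lay between the WT and the HSA-LR mice. The HSA-LR mean was 3.92-fold the WT mean in the gastrocnemius and 3.22-fold in the quadriceps, and the treated mean was 1.54-fold and 1.69-fold the WT mean. The treated mice differed from WT by a log2 fold change (FC) of 0.62 ± 0.096 (SE) in the gastrocnemius and 0.76 in the quadriceps. The rise ran along the gene, since 21 of 21 exon bins with a mean of 5 or more counts in the WT and in the HSA-LR mice were at least 2-fold higher in HSA-LR gastrocnemius (2.07-fold to 5.73-fold), as were 20 of 20 in the quadriceps.

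Uchl1 encodes a ubiquitin C-terminal hydrolase that is abundant in neurons. It lies at chr5:66676091-66687234 on the plus strand (ENSMUSG00000029223.12). In the gastrocnemius its level was 5.83, 6.37 and 7.15 CPM in WT, 49.19, 39.98 and 40.53 CPM in HSA-LR and 14.28, 11.96 and 15.88 CPM in treated mice. In the quadriceps, WT mice had 3.98, 4.42 and 3.89 CPM, HSA-LR mice 38.0, 30.3 and 39.9 CPM and treated mice 17.6, 16.5 and 12.1 CPM. Uchl1 was the gene that stayed farthest from WT in the quadriceps on the scale of its own change, with a treated mean 3.77-fold the WT mean after an HSA-LR mean 8.81-fold the WT mean. The gastrocnemius means were 2.18-fold and 6.70-fold. Its 10 exon bins with enough counts rose together, by 6.16-fold to 7.15-fold in the gastrocnemius and by 7.88-fold to 10.04-fold in the quadriceps.

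Ogdhl encodes a relative of the first subunit of the 2-oxoglutarate dehydrogenase complex of the citric acid cycle and is known mainly from brain. It lies at chr14:32322019-32348151 on the plus strand (ENSMUSG00000021913.7). In the gastrocnemius its level was 4.92, 4.12 and 2.22 CPM in WT mice, 28.2, 33.9 and 27.6 CPM in HSA-LR and 7.35, 4.98 and 4.48 CPM in treated mice, so that treated and WT mice overlapped. The quadriceps held 2.22, 2.14 and 1.65 CPM in WT, 20.8, 25.1 and 25.5 CPM in HSA-LR and 4.19, 4.86 and 3.89 CPM in treated mice, with no overlap between any groups. The HSA-LR mean was 7.96-fold and 11.9-fold the WT mean, in that order of muscles, and the treated mean was 1.49-fold and 2.15-fold the WT mean. All 24 exon bins of the gastrocnemius and all 23 with enough counts in the quadriceps rose at least 2-fold (4.88-fold to 13.5-fold and 9.42-fold to 17.5-fold).

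The promoter of Ogdhl is shown as that of a gene that rose along its whole length from the annotated first exon (RefSeq, GRCm38, chr14:32321769-32322068, plus strand, 250 bases before to 50 after the start). Capitals mark the motif GGGCGG, searched on both strands.
Ogdhl promoter: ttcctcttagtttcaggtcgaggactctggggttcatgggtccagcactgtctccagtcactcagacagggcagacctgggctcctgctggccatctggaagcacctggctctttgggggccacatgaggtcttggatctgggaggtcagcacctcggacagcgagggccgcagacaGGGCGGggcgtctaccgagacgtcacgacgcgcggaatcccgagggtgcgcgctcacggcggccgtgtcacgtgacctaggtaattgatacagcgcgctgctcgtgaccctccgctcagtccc
GGGCGG occurs in 35.7% of 32851 promoters of this length. The same window held 4 matches to CANNTG, the letters that muscle regulatory factors bind, and 72.3% of all promoters hold at least 1. These are matches of letters only. The Uchl1 promoter, another of a gene that rose along its length, held no match to GGGCGG or CANNTG, to the CAAT box, CCAAT, which 37.4% of promoters hold, or to the TATA box, TATAAA, which 13.6% hold.

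Ttc7 encodes a scaffold protein with tetratricopeptide repeats that holds the lipid kinase PI4KA at the plasma membrane. It lies at chr17:87282886-87381769 on the plus strand (ENSMUSG00000036918.15). In the gastrocnemius its summed level was 11.7, 10.9 and 10.9 CPM in WT, 36.1, 36.1 and 34.3 CPM in HSA-LR and 16.6, 13.1 and 13.6 CPM in treated mice. The quadriceps gave 15.1, 10.1 and 11.7 CPM in WT, 43.1, 37.8 and 35.5 CPM in HSA-LR and 18.52, 14.98 and 14.69 CPM in treated mice. Unlike the genes above, the sum hides a break inside the gene. Counted from the 5′ end, no bin up to bin 27 with enough counts was 2-fold higher in HSA-LR mice in either muscle, while 6 of those from bin 28 on were, in each muscle. Bin 34 was at 1.66-fold in the gastrocnemius, from 6.33 counts per WT library.

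The 3′ part of Ttc7 (bins 28 to 36, a split chosen after its values were seen and given with no test) had 6.45, 5.45 and 5.08 CPM in WT, 29.7, 31.3 and 29.5 CPM in HSA-LR and 10.6, 8.12 and 9.56 CPM in treated gastrocnemius. The 5′ part (bins 1 to 27) had 5.24, 5.45 and 5.83 CPM in WT, 6.35, 4.80 and 4.82 CPM in HSA-LR and 5.99, 4.93 and 4.09 CPM in treated mice. The 5′ values of the 3 groups overlapped, while each HSA-LR mouse was above each WT and treated mouse in the 3′ part. Over WT, the HSA-LR mean was 0.967-fold in the 5′ part and 5.33-fold in the 3′ part. In the quadriceps the 2 parts gave 1.25-fold, with overlapping mice, and 5.15-fold. The share of Ttc7 counts in the 3′ part was 50.6% ± 4.34 (SD, n = 3) in WT, 85.0% ± 2.30 in HSA-LR and 65.4% ± 4.13 in treated gastrocnemius. In the quadriceps it was 49.6% ± 5.003, 79.6% ± 2.86 and 61.6% ± 5.12. Treated mice thus lay between the other groups in this share in both muscles, and none of them overlapped the HSA-LR mice or the WT mice. The share depends on the length of the bins. Counted per kb of bin, its mean was 41.9% in WT, 80.0% in HSA-LR and 57.1% in treated gastrocnemius. In the quadriceps the means per kb were 40.9, 73.4 and 53.1%.

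**Figure D2:**
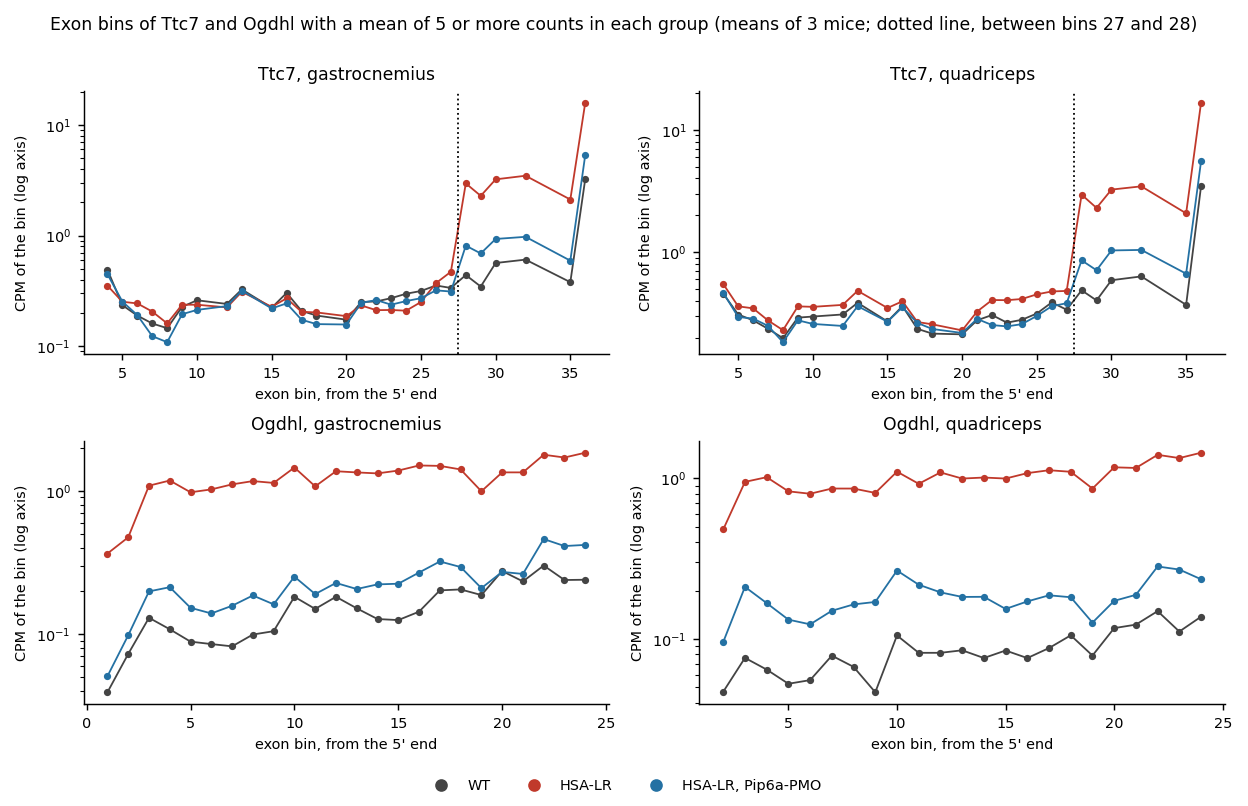
Mean CPM of each exon bin (log axis; n = 3 mice) against the number of the bin from the 5′ end, for Ttc7 and Ogdhl in both muscles; bins with a mean under 5 counts in any group are left out. In Ttc7 no bin drawn up to bin 27 is 2-fold higher in HSA-LR than in WT mice. The groups part at bin 28, where HSA-LR gastrocnemius is 6.72-fold WT, while in Ogdhl they are apart from the first bin drawn.

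The break lay in the intron of 2618 bases between bin 27 and bin 28. Bin 27 was at 0.337 CPM in WT and 0.471 CPM in HSA-LR gastrocnemius, and bin 28 at 0.440 and 2.96 CPM. Both exons are coding in the full-length transcript, and their sequences are shown because the level changes between them (GRCm38, plus strand; bin 27 at chr17:87359114-87359230 and bin 28 at chr17:87361849-87361921).
Ttc7 bin 27: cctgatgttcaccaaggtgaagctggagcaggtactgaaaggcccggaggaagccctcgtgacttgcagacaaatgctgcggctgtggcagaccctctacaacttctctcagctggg
Ttc7 bin 28: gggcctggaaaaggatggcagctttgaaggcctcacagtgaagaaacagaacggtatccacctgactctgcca
The coding sequence beyond the break held 652 of the 2574 coding bases of that transcript (25.3%), the C-terminal end of the protein. Of 10 annotated transcripts of Ttc7 in GENCODE M21, none started in that intron or in bin 28. Ttc7-206 was the only one that started beyond bin 27, and it begins at bin 34, downstream of the first raised bins. Within the gene, 26 of 27 tested bins of Ttc7 passed the threshold as used differently between HSA-LR and WT gastrocnemius (5 more and 21 less than the rest of the gene), beside 0.819% of the 172719 bins tested, and 18 of 28 in the quadriceps, beside 0.284% of 172858. Of the quadriceps bins, 1 was used more and 17 less. Over the bins of all 8 genes, the quadriceps count was 8 with limma voom and diffSplice, of which 6 were used more and 2 less, so that the split of directions turned with the tool. With diffSpliceDGE it fell to 2 without HSA-LR mouse 1, 4 without WT mouse 1, 7 without WT mouse 3, 8 without HSA-LR mouse 2 and 11 without HSA-LR mouse 3. Between treated and HSA-LR mice, 12 bins of the 8 genes were called in the gastrocnemius (0.309% of all bins), all used more in treated mice, against 9 of the 15 that limma called, and 0 in the quadriceps by diffSpliceDGE (0.168% of all bins), where 21 bins of the 8 genes had an unadjusted P under 0.05 and limma called 5. The gastrocnemius count fell to 4 without HSA-LR mouse 2 or 3 and to 7 or 8 without treated mouse 1 or 2. Between treated and WT mice, 0 bins of the 8 genes were called by diffSpliceDGE in the gastrocnemius (0.0654% of all bins) and in the quadriceps (0.0353%), with 6 and 1 at an unadjusted P under 0.05 and 2 and 0 called by limma. The intron sequence was not analysed here.

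Dtl also rose mainly in its last exons, at a far lower level and with few counts in the bins upstream. It encodes Cdt2, the substrate receptor of the CRL4 ubiquitin ligase that removes Cdt1, p21 and Kmt5a during DNA replication, and it lies at chr1:191537356-191575544 on the minus strand (ENSMUSG00000037474.13). Its level was 0.0900, 0.136 and 0.124 CPM in WT gastrocnemius, 2.30, 1.83 and 2.02 CPM in HSA-LR and 0.264, 0.192 and 0.245 CPM in treated mice, the WT values coming from 11, 19 and 18 counts. In the quadriceps it was 0.352, 0.194 and 0.147 CPM in WT, 1.14, 1.27 and 1.23 CPM in HSA-LR and 0.480, 0.508 and 0.210 CPM in treated mice. The HSA-LR mice were far above the others in both muscles, and treated and WT mice overlapped in the quadriceps only. The means of HSA-LR and WT mice differed by 17.6-fold in the gastrocnemius and 5.24-fold in the quadriceps.

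In the WT gastrocnemius, 39 counts lay in the last exons of Dtl (bins 1 to 5 by position, a split again chosen after its values were seen) and 9 in the other 22 bins, over all 3 mice. The HSA-LR mice had 772 and 14 counts. The last exons were thus 21.2-fold higher in HSA-LR than in WT mice, and the bins upstream 1.75-fold with overlapping mice. In the quadriceps the WT mice had 58 and 21 counts and the HSA-LR mice 404 and 39, that is, 6.52-fold and 1.72-fold, the latter again with overlap. The last exons held 82.5% ± 7.27 (SD, n = 3) of the counts in WT, 98.1% ± 1.34 in HSA-LR and 86.9% ± 12.5 in treated gastrocnemius. The treated mice (85.7, 75.0 and 100%) spanned both other groups, since they had 72 and 11 counts only. At this depth, a change of the upstream bins was not detectable. Only 3 bins of Dtl had enough counts to be tested within the gene, and 0 of them were called in either muscle.

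The intron between these parts of Dtl holds 4954 bases, and 0 of 6 annotated transcripts started beyond it. The exons on both sides of this split are shown (GRCm38, minus strand, written in the sense of the gene). Bin 6 lies at chr1:191546491-191546623 and the first 200 bases of bin 5 at chr1:191541337-191541536. Both are coding.
Dtl bin 6: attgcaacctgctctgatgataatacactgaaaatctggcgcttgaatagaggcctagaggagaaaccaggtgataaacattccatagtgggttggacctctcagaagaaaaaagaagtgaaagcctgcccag
Dtl bin 5, first bases: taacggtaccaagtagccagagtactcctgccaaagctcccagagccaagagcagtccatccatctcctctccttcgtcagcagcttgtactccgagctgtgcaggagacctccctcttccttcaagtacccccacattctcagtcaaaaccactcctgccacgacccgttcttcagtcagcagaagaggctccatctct
The last exons hold 929 of the 2187 coding bases of the full-length transcript (42.5%). Bin 5 was at 0.0122 CPM in WT and 0.356 CPM in HSA-LR gastrocnemius, and bin 6 at 0.00273 and 0.0104 CPM. The whole of bin 5 (chr1:191540704-191541536) is longer than bin 6, so that these levels cannot be compared between the bins. The values of bin 6 rest on no more than the 9 and 14 counts of all upstream bins.

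**Figure D3:**
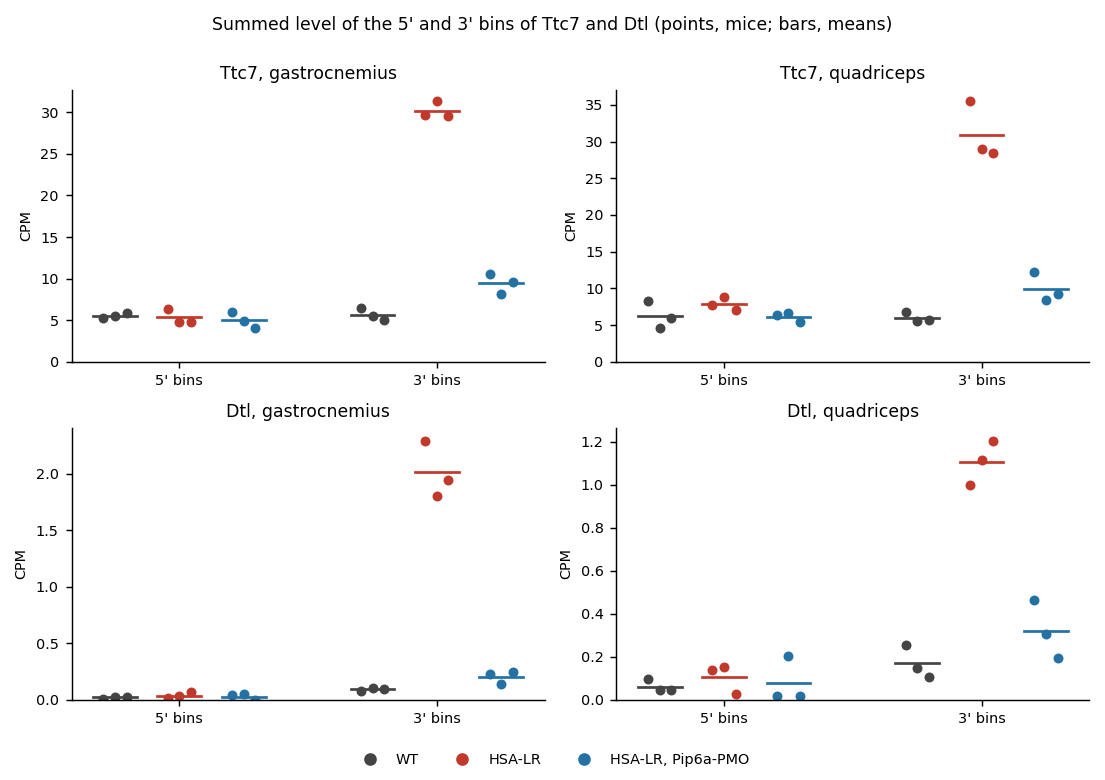
Summed CPM of the 5′ bins and of the 3′ bins of Ttc7 (bins 1 to 27 and 28 to 36) and Dtl (bins 6 to 27 and 1 to 5 by position, the gene lying on the minus strand) in each library. Points are mice, bars are means (n = 3). The 3′ bins of the HSA-LR mice are above all others, by 5.33-fold over WT for Ttc7 and 21.2-fold for Dtl in the gastrocnemius. The 5′ bins of HSA-LR and WT mice overlap. In the quadriceps, the 5′ bins of Ttc7 are higher in each HSA-LR mouse (7.04 to 8.87 CPM) than in each treated mouse (5.44 to 6.60 CPM).

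Cdnf was the gene with the stronger fall. It encodes cerebral dopamine neurotrophic factor, a small protein of the endoplasmic reticulum and of the same family as Manf, and it lies at chr2:3513030-3526376 on the plus strand (ENSMUSG00000039496.8). Its level in the gastrocnemius was 37.2, 35.4 and 36.9 CPM in WT, 10.9, 6.90 and 10.6 CPM in HSA-LR and 29.4, 32.0 and 22.1 CPM in treated mice. In the quadriceps it was 36.7, 44.0 and 42.8 CPM in WT, 8.14, 7.47 and 9.08 CPM in HSA-LR and 34.6, 37.0 and 37.9 CPM in treated mice. The HSA-LR mean was 3.86-fold lower than the WT mean in the gastrocnemius and 4.998-fold lower in the quadriceps. Treated and WT mice overlapped in the quadriceps, and in the gastrocnemius all 3 treated mice were below all WT mice. All 7 bins with enough counts fell alike, to between 0.248 and 0.292 of the WT level in the gastrocnemius and between 0.180 and 0.220 in the quadriceps.

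The promoter of Cdnf is shown as that of the gene with the stronger fall, which ran along its whole length (RefSeq, GRCm38, chr2:3512815-3513114, plus strand). Capitals mark CCAAT.
Cdnf promoter: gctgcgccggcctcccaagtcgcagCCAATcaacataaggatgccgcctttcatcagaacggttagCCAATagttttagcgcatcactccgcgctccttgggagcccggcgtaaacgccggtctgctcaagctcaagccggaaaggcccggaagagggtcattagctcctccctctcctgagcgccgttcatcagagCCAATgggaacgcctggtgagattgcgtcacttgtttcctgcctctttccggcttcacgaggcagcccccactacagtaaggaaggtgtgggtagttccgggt
It held 3 matches to CCAAT, and the Narf promoter held 4. CCAAT is also the first part of the element by which genes of the endoplasmic reticulum stress response are known (ERSE), which 0.119% of promoters held and none of the 7 genes with an entry did. No entry was found for Ccdc192.

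Narf encodes a nuclear protein that binds the prenylated tail of prelamin A, and it lies at chr11:121237253-121255856 on the plus strand (ENSMUSG00000000056.7). It had the highest counts of the 8 genes and the smallest fold. In the gastrocnemius its level was 107, 107 and 124 CPM in WT, 64.3, 58.4 and 58.1 CPM in HSA-LR and 91.9, 114 and 84.6 CPM in treated mice. In the quadriceps it was 106, 125 and 139 CPM in WT, 57.7, 58.5 and 65.1 CPM in HSA-LR and 109, 114 and 126 CPM in treated mice. The HSA-LR mean was 1.87-fold and 2.04-fold lower than the WT mean, and the treated mice overlapped the WT mice in both muscles. All 13 bins with enough counts lay between 0.511 and 0.579 of the WT level in the gastrocnemius and between 0.442 and 0.524 in the quadriceps.

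The fold changes of HSA-LR and treated mice against the same WT mice can be set side by side, since both comparisons share those mice. In the gastrocnemius the log2 FC was 1.97 and 0.62 in Ctnna3, 2.74 and 1.12 in Uchl1, 4.12 and 0.99 in Dtl, 1.67 and 0.37 in Ttc7, and 2.99 and 0.58 in Ogdhl. For Cdnf it was -1.95 and -0.39, and for Narf -0.90 and -0.22. In the quadriceps it was 1.69 and 0.76 in Ctnna3, 3.14 and 1.91 in Uchl1, 2.39 and 0.78 in Dtl, 1.66 and 0.39 in Ttc7, 3.57 and 1.10 in Ogdhl, -2.32 and -0.17 in Cdnf, and -1.03 and -0.09 in Narf.

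**Figure D4:**
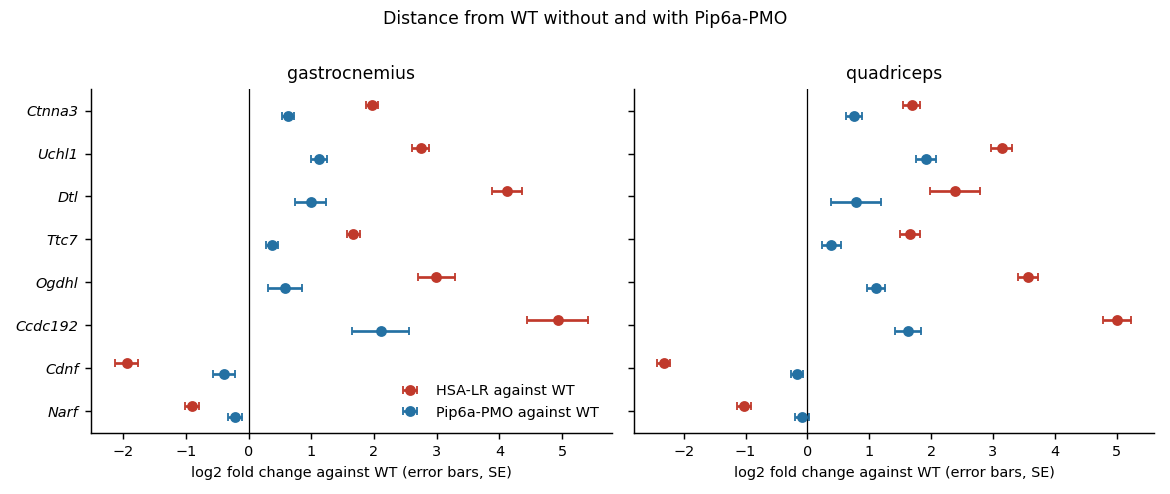
Log2 FC of HSA-LR and of treated animals against WT for the 8 genes, by muscle, with the SE of the fit (n = 3 mice per group). Each gene keeps its direction in treated mice and lies closer to 0, and Ccdc192 has the widest distances, 4.93 and 2.11 in the gastrocnemius.

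The return is the percentage of the HSA-LR change (log2 FC against WT) that was gone in treated mice, so that 0 is no return and 100 is the WT mean. Its median over the 8 genes was 75.9% in the gastrocnemius, from 57.3% (Ccdc192) to 80.6% (Ogdhl), and 68.3% in the quadriceps, from 39.1% (Uchl1) to 92.6% (Cdnf). For treated mice 1, 2 and 3 alone the median was 67.2, 84.5 and 66.6% in the gastrocnemius and 63.2, 64.6 and 81.2% in the quadriceps. The mouse with the highest median was thus mouse 2 in the gastrocnemius and mouse 3 in the quadriceps. Cdnf and Narf had returned by 92.6% and 91.5% in the quadriceps and by 79.9% and 75.7% in the gastrocnemius. Uchl1 had the lowest return in the quadriceps and the second lowest in the gastrocnemius (59.1%). Computed on linear CPM, the medians were 84.1% and 85.9%. Over all genes changed at least 2-fold and called, the median on the log2 scale was 65.2% for 756 genes in the gastrocnemius and 61.2% for 992 in the quadriceps. By log2 FC, 2 of the 8 genes in treated gastrocnemius (Uchl1 and Ccdc192) were still at least 2-fold from WT mice. In treated quadriceps there were 3 (the same 2 and Ogdhl). Narf is among the 8 but was under 2-fold in the gastrocnemius even without treatment (log2 FC -0.90). Beside these counts, 71.6% of the 756 gastrocnemius genes and 70.1% of the 992 quadriceps genes were back under 2-fold after treatment. Differences of the return between muscles were not tested.

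**Figure D5:**
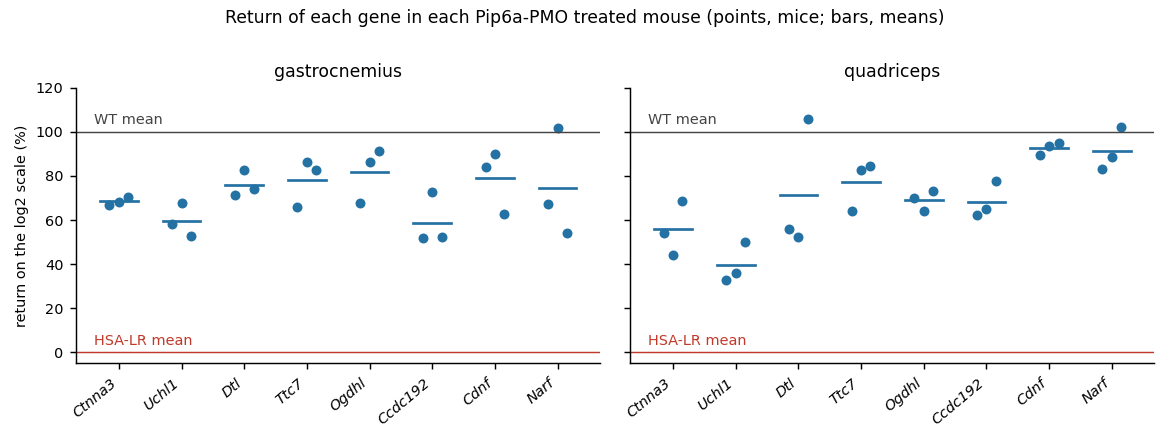
Return of each gene on the log2 scale in each treated mouse, in percent, where 0 is the HSA-LR mean and 100 is the WT mean. Points are mice and bars their means. The 3 quadriceps values of Uchl1 (32.9, 35.9 and 50.1%) are the lowest of the 8 genes in each mouse, and those of Cdnf (89.3, 93.5 and 94.9%) lie close to 100.

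The difference between the 2 muscles of WT mice played no part in the choice. Tested in 1 fit of the 18 libraries, 0 of the 8 genes were called by edgeR, beside 0.297% of 16167 genes. An unadjusted P under 0.05 was found for 4 of the 8, beside 1437 of the 16167 genes. With the mouse as a block, 305 genes were called in place of 48, among them Ogdhl and Uchl1. Ogdhl had a log2 FC of quadriceps against gastrocnemius of -0.92 ± 0.24 (SE; edgeR, adjusted P = 0.169 without and adjusted P = 0.0559 with the block) and Uchl1 of -0.67 ± 0.15 (adjusted P = 0.116 and adjusted P = 0.0970). DESeq2 called both of these genes (adjusted P = 0.0216 and adjusted P = 0.00808), lower in the quadriceps. For Ctnna3, Ttc7, Cdnf and Narf the log2 FC lay between -0.17 and 0.16. Dtl (0.96 ± 0.36) and Ccdc192 (-0.89 ± 0.41) had larger differences with wide errors, and leaving out WT mouse 1 moved them to 0.37 and -0.16.

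The genes that work with the 8 were counted from lists of partners, 64 of which were tested in each muscle. Between HSA-LR and WT mice, 8 were called in the gastrocnemius (4 higher and 4 lower) and 11 in the quadriceps (3 higher and 8 lower), beside the 15.5% and 20.3% of all genes given above. Between treated and HSA-LR mice, 5 and 8 partners were called, beside 10% and 13.8% of all genes. All 4 counts were below the share over all genes. The median log2 FC over the partners between HSA-LR and WT mice was 0.02 and -0.0015, against -0.01 and 0.0053 over all genes. For Narf, 2 of 8 partners were lower in each muscle. Fnta, the alpha subunit of the farnesyltransferase that prenylates prelamin A, had a log2 FC of -0.36 in the gastrocnemius and -0.38 in the quadriceps (adjusted P = 0.0244 and adjusted P = 0.00661, edgeR) and rose by 0.45 and 0.29 in treated against HSA-LR mice (adjusted P = 0.0191 and adjusted P = 0.0327). Fnta thus fell and rose in the same groups as Narf, and of these 4 calls only that of treated quadriceps was lost, without HSA-LR mouse 1 or 2 or treated mouse 1. Icmt, which methylates prenylated proteins, was lower in the gastrocnemius (log2 FC -0.34, adjusted P = 0.0319), a call lost with the largest bin of each gene and without WT mouse 2 or HSA-LR mouse 2. Lmnb1, lamin B1, was lower in the quadriceps (-0.63, adjusted P = 0.0447), a call lost without WT mouse 2 or HSA-LR mouse 1 or 3. Lmna itself was not called between HSA-LR and WT mice. It was lower in treated than in HSA-LR quadriceps (log2 FC -0.40, adjusted P = 0.0843, edgeR), the opposite direction to Fnta and Narf.

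Of the 11 tested junction genes of the Ctnna3 list, Vcl (vinculin, an actin-binding relative of the alpha-catenins) was the 1 called between HSA-LR and WT mice in each muscle. Vcl was higher in HSA-LR mice by a log2 FC of 0.62 and 0.48 (adjusted P = 0.0269 and adjusted P = 0.00992, edgeR), and it kept this call under every alternative. Its fall in treated against HSA-LR mice was not called (log2 FC -0.38 and -0.13, adjusted P = 0.162 and adjusted P = 0.392, edgeR). Of the 8 tested ubiquitin genes of the Uchl1 list, Rps27a, which encodes ubiquitin fused to a ribosomal protein, was higher in the gastrocnemius (0.67, adjusted P = 0.0162) and Uba1, the ubiquitin-activating enzyme, was lower in the quadriceps (-0.20, adjusted P = 0.0872, lost in 10 of 15 alternatives). Of the 12 genes of the ligase that Dtl serves and its substrates, 0 were higher in either muscle. Lower were Kmt5a in both muscles (-0.31 and -0.26, adjusted P = 0.0765 and adjusted P = 0.0290), Pcna in the gastrocnemius (-0.27, adjusted P = 0.0719, lost in 9 of 15 alternatives), and Ddb2 (-0.61, adjusted P = 0.0214) and Ercc5 (-0.38, adjusted P = 0.0855, lost in 8 of 15) in the quadriceps. The gastrocnemius call of Kmt5a was lost in 7 of 15 alternatives. The ligase subunits Cul4a, Cul4b, Ddb1 and Rbx1 were not called. Between treated and HSA-LR mice, Rps27a, Uba1, Kmt5a, Pcna and Ddb2 were called in neither muscle. Ercc5 was higher in treated than in HSA-LR quadriceps (log2 FC 0.40, adjusted P = 0.0969, edgeR, kept in 6 of 15 alternatives).

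In the complex of Ttc7, 0 of 10 genes were called in the gastrocnemius, and Ttc7b, its paralog, was lower in the quadriceps (log2 FC -0.28, adjusted P = 0.0685, edgeR, lost in 5 of 15 alternatives). In the list of Ogdhl, Dhtkd1, another relative of the first subunit of that complex, was higher in the gastrocnemius (0.56, adjusted P = 0.0970, lost in 11 of 15 alternatives), and Ogdh itself was lower in the quadriceps (-0.36, adjusted P = 0.0377, lost without WT mouse 3 or HSA-LR mouse 1). In the quadriceps, Ogdhl and Ogdh thus moved in opposite directions. In the list of Cdnf, 5 genes were tested. Dnajb9, a chaperone of the endoplasmic reticulum, was higher in both muscles (0.41 and 0.32, adjusted P = 0.0770 and adjusted P = 0.0683, each lost in 7 of 15 alternatives) and Sdf2l1 in the quadriceps (0.50, adjusted P = 0.0853, lost in 8 of 15). Between treated and HSA-LR mice, Ttc7b, Dnajb9 and Sdf2l1 were called in neither muscle. Dhtkd1 was lower in treated mice in both muscles (-0.80 and -0.65, adjusted P = 0.0458 and adjusted P = 0.0612, edgeR, kept in 11 and 10 of 15 alternatives). Ogdh was higher in treated quadriceps (0.41, adjusted P = 0.0405, edgeR, kept in 11 of 15).

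Of 18 neighbouring genes, 1 was called between HSA-LR and WT mice in the gastrocnemius and 2 in the quadriceps, beside 15.5% and 20.3% of all genes. The gene 0610012D04Rik lies on the strand opposite to Ttc7 inside its raised part (chr17:87362239-87364462). In the quadriceps its level was 0.449, 0.362 and 0.580 CPM in WT, 1.31, 0.899 and 0.999 CPM in HSA-LR and 0.534, 0.475 and 0.319 CPM in treated mice. It was higher in HSA-LR mice there (log2 FC 1.20, adjusted P = 0.0213, edgeR) and lower again in treated mice (-1.27, adjusted P = 0.0308, lost without HSA-LR mouse 1). In the gastrocnemius its log2 FC was 0.02 between HSA-LR and WT mice (adjusted P = 0.981) and -1.01 between treated and HSA-LR mice (adjusted P = 0.0889, lost in 10 of 15 alternatives). Libraries were stranded, and reads of both strands can be told apart as far as the kit keeps them apart. The gene Ints7, whose start is 0.091 kb from that of Dtl, had log2 FC of 0.22 in both muscles (adjusted P = 0.274 and adjusted P = 0.183).

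Ccdc192 encodes a coiled-coil protein of little known function. It lies on chromosome 18 from 57533780 to 57731065 on the plus strand (ENSMUSG00000058925.11), and it had the largest fold of the 8 genes. In the gastrocnemius its level was 1.27, 0.650 and 0.289 CPM in WT, 22.1, 19.4 and 25.1 CPM in HSA-LR and 3.82, 1.86 and 3.75 CPM in treated mice. In the quadriceps it was 0.343, 0.406 and 0.442 CPM in WT, 13.76, 11.96 and 12.51 CPM in HSA-LR and 1.48, 1.34 and 0.856 CPM in treated mice. The HSA-LR mean was 30.2-fold and 32.1-fold the WT mean, and the treated mean 4.27-fold and 3.08-fold, with no overlap of groups. Its log2 FC against WT mice was 4.93 and 2.11 (HSA-LR and treated) in the gastrocnemius and 5.0 and 1.62 in the quadriceps. All 5 bins with enough counts rose, from 16.2-fold to 38.7-fold and from 21.4-fold to 39.9-fold. In the WT gastrocnemius, bins 1 to 4 (a part chosen after its values were seen) held 9.30% ± 5.57 (SD, n = 3) of the counts of the gene, against 35.2% ± 0.912 in HSA-LR mice, but these WT shares rest on 25 counts. In the quadriceps the shares were 28.4% ± 13.5 and 33.1% ± 1.11 with overlap.

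The gene Ctxn3, which ends 55.6 kb upstream of Ccdc192, was called higher in HSA-LR mice in both muscles (log2 FC 1.69 and 2.11, adjusted P = 0.0102 and adjusted P = 0.00126, edgeR), under every alternative. Its level in the gastrocnemius was 46.2, 28.5 and 15.8 CPM in WT, 89.2, 94.6 and 109 CPM in HSA-LR and 80.9, 83.14 and 101.9 CPM in treated mice. The treated mice stayed with the HSA-LR mice there, with a log2 FC between them of -0.14 (adjusted P = 0.828), whereas each treated mouse was below each HSA-LR mouse for Ccdc192. In the quadriceps Ctxn3 was at 16.2, 21.6 and 12.2 CPM in WT, 98.4, 61.1 and 55.8 CPM in HSA-LR and 39.5, 40.2 and 43.2 CPM in treated mice, and its fall in treated mice had an adjusted P = 0.0788 in edgeR, lost in 6 of 15 alternatives. The difference between Ctxn3 and Ccdc192 was not tested.

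The genes most like each of the 8 were found over the 18 libraries by the root mean square (RMS) difference of log2 CPM, centred on the WT mice of each muscle, among 11237 genes. This likeness is a description and includes the shared change that chose the 8. Closest were Iqcg (RMS 0.236) to Ctnna3, Sp3os (0.218) and Atcayos (0.231) to Ttc7, Gnal (0.523) to Dtl, and Nrg2 (0.971) and Sln (1.05) to Ccdc192. Eda2r, a receptor of the tumor necrosis factor receptor family, was the closest gene to both Uchl1 (0.360) and Ogdhl (0.365). Its mean was 11.2 CPM in WT, 80.1 CPM in HSA-LR and 21.3 CPM in treated gastrocnemius. Among the genes that fell, Cdnf was closest to F2rl3 (0.291) and Igfbp5 (0.354), and Narf to Qser1 (0.138) and Abhd8 (0.151). Of the 8 genes themselves, the nearest pair was Ctnna3 and Ttc7 (0.278).

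Markers of other cell types were summed beside these results, and their counts stand beside the 8.60% of all genes called higher and 6.94% lower in the gastrocnemius and the 11% and 9.31% in the quadriceps. All 8 skeletal muscle markers were among the tested genes, at a sum of 134900 to 231100 CPM across all libraries. Of these, 2 were higher and 0 lower in HSA-LR than in WT gastrocnemius, and 1 was higher and 2 lower in the quadriceps. In treated against HSA-LR mice, 3 were higher and 2 lower in the gastrocnemius, and 2 higher and 0 lower in the quadriceps. Of 7 genes known from denervated and embryonic muscle, 4 were higher in HSA-LR mice in each muscle, with sums of 54.7 to 79.2 CPM in WT, 102.1 to 125.8 CPM in HSA-LR and 63.1 to 90.4 CPM in treated gastrocnemius and 56.4 to 71.2, 89.5 to 121 and 85.8 to 105 CPM in the quadriceps. Of 6 macrophage markers, 2 were higher in the gastrocnemius and 4 in the quadriceps, where their sum was 26.98 to 44.67 CPM in WT, 61.4 to 81.2 CPM in HSA-LR and 29.2 to 43.4 CPM in treated mice. Of 6 Schwann cell and myelin markers, 0 were higher, and 4 were lower in the quadriceps (sum 92.6 to 119 CPM in WT and 50.8 to 75.1 CPM in HSA-LR). Of 7 cycling cell markers, 0 were called higher beside the rise of Dtl and 1 was lower in the quadriceps, and their sum lay between 10.8 and 15.7 CPM in all libraries. Mcm2 made up most of that sum (9.02 CPM in WT and 7.39 CPM in HSA-LR gastrocnemius). In the gastrocnemius the HSA-LR means of Mki67, Ccna2, Cdk1 and Tyms were above WT and those of Mcm2, Mcm5 and Rrm2 below, none of them called. In the quadriceps, 3 of 6 satellite cell and myoblast markers were higher and 1 lower (mean sum 60.48 CPM in WT and 79.71 CPM in HSA-LR mice), 2 of 3 fibroblast markers were higher (348.0 and 478.5 CPM) and 3 of 5 endothelial markers were lower (227.2 and 158.3 CPM). In the gastrocnemius 1 satellite cell and 1 fibroblast marker were higher and 0 endothelial markers passed. Of 6 slow fiber markers, 0 were called between HSA-LR and WT mice, and 5 were higher in treated than in HSA-LR quadriceps, where the sum ran from 99.58 to 1719 CPM in treated and from 83.81 to 162.0 CPM in HSA-LR mice. Of 6 adipocyte and 5 erythroid markers, 0 were called in either comparison in either muscle. The adipocyte sum in the quadriceps ran from 401.9 to 1395 CPM in WT, 127.6 to 1397 CPM in HSA-LR and 161.4 to 332.4 CPM in treated mice. The erythroid sum in the gastrocnemius ran from 772.5 to 3858 CPM in WT, 500.4 to 671.3 CPM in HSA-LR and 898.5 to 3127 CPM in treated mice. No marker of these lists was at 0. The part of these cell types in the levels of the 8 genes was not tested.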

How the data were processed

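The members and all gene lists were chosen with earlier results of these data known. RNA of 2 muscles was made into stranded poly(A) libraries (TruSeq). Per library, the authors deposited whole-number counts for 391858 exon bins of 46725 genes, not normalized and not pooled. The submitters' processing notes name CASAVA, HISAT and featureCounts 1.5.0 and the build GRCm38, with no role given. Read pairs spanning exons enter more than 1 bin, which raises sums over genes with short bins. Rows without a gene name (2.82% to 4.14% of counts) were dropped.

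Bins were summed per gene. Genes passing filterByExpr (minimum count 10, minimum total 15) were scaled by TMM and tested with edgeR 4.0.16 (glmQLFit and glmQLFTest) in R 4.3.3, fitting each muscle's 9 libraries together, with adjustment by Benjamini-Hochberg. CPM are counts over TMM-scaled library size within a muscle. Bins were tested with diffSpliceDGE. Alternatives were DESeq2 1.42.0, upper-quartile factors, other filters, the largest bin of a gene, a replicate block, each mouse left out, and limma 3.58.1 voom with diffSplice. Scripts were tested on simulated data. The labels do not say whether replicates are separate animals, and P values measure the spread between these libraries.

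Libraries of both muscles with the same group and number were taken as 1 mouse, from the study's text (treated mice) and the labels' numbers. Their deviations from the group means had a median r = 0.215 (0.0645 to 0.511, n = 9), against -0.0903 for different mice of a group. Across groups, the same number gave 0.0013 and marks nothing shared. The mouse was a block in an alternative fit of the WT muscles.

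Coordinates come from GENCODE M21 (GRCm38), matched by bin number. For Ttc7 and Ogdhl, whose gene versions differ between files and annotation, bins matched in number only after the transcripts Ttc7-210, Ogdhl-202 and Ogdhl-203 were left out. Sequences are from the M21 transcripts and from RefSeq promoters. Partner genes were named if called in HSA-LR against WT mice in either muscle. Neighbours are the nearest tested gene on each side and any overlapping gene. Likeness was taken over log2 CPM (prior count 2), centred on the WT libraries. Zmpste24, Top2a, Ctnnd1, Hsp90b1, Fam96b, Hspa14, Pdgfra, Fntb, Pdia4, Col3a1, Manf, Ctnnb1 and Narfl were not analysed here.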

Additional observations from a re-analysis of the deposited data

How the results depend on the processing

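The alternatives kept the direction of all 8 genes between HSA-LR and WT mice and between treated and HSA-LR mice. They also kept the count of 8 between HSA-LR and WT mice. Between treated and WT quadriceps, the log2 FC of Narf, which was not called, changed sign with a mouse left out (-0.1843 to 0.009962). With the replicate number as a block, 921 genes were called between treated and HSA-LR and 63 between treated and WT gastrocnemius, 90 between treated and WT quadriceps and 305 between the WT muscles, with 1 of the 8 genes (Uchl1) in treated against WT gastrocnemius and 2 (Ogdhl and Uchl1) between the WT muscles, and 4 partners in HSA-LR against WT gastrocnemius and 3 and 4 in treated against HSA-LR gastrocnemius and quadriceps. Across groups the samples share only a number, while between the muscles the block is the mouse. DESeq2 called 529 and 748 genes between treated and WT gastrocnemius and quadriceps and 341 between the WT muscles, 5 and 2 of the 8 genes in treated against WT gastrocnemius and between the WT muscles, and 8 and 13 partners in treated against HSA-LR gastrocnemius and quadriceps. Upper-quartile factors gave 73 genes and 1 of the 8 between the WT muscles. The largest bin gave 133 genes and 2 of the 8 in treated against WT quadriceps, 1 of the 8 between the WT muscles and 3 partners in treated against HSA-LR gastrocnemius. A minimum count of 1 left 5 partners in HSA-LR against WT gastrocnemius and 5 in treated against HSA-LR quadriceps. For bins, limma called 1051 in treated against HSA-LR gastrocnemius and 1106, 812 and 95 in the quadriceps (HSA-LR against WT, treated against HSA-LR, treated against WT), and of the bins of the 8 genes 2 in treated against WT gastrocnemius and 8 and 5 in the first 2 quadriceps comparisons. The linear return had a median of 85.87% in the quadriceps. Counted per kb of bin, 14 of the 18 group shares of the 3′ part of Ttc7, Dtl and Ccdc192 moved by at least their SD. Among them were those of WT gastrocnemius in Dtl (82.5 to 93.0%) and Ccdc192 (90.7 to 71.6%). With each mouse left out, genes called ranged, for HSA-LR against WT, treated against HSA-LR and treated against WT, over 1357 to 3538, 428 to 1877 and 47 to 195 in the gastrocnemius and 2050 to 3373, 691 to 2784 and 50 to 306 in the quadriceps, and over 5 to 131 between the WT muscles. The 8 genes ranged over 8 to 8, 8 to 8 and 1 to 3, then 8 to 8, 7 to 8 and 3 to 4, and 0 to 1. Partners ranged over 3 to 15 and 1 to 5, then 5 to 12 and 0 to 10. Bins ranged over 683 to 1920, 270 to 716 and 94 to 124, then 329 to 506, 158 to 372 and 26 to 226, and bins of the 8 genes over 19 to 27, 4 to 13 and 0 to 0, then 2 to 19, 0 to 1 and 0 to 0. The median return ranged over 70.77 to 78.02% and 65.50 to 73.09%. Beside that of Narf, log2 FC that changed sign, none of them called, were Ctnna3 (0.05122, largest bin) and Ttc7 (-0.02188 to 0.2198 with a mouse left out) between the WT muscles, 0610012D04Rik in HSA-LR against WT gastrocnemius (-0.2351 to 0.295 with a mouse left out, and -0.04302 without HSA-LR mouse 2), and, in treated against HSA-LR mice, Dnajb9 (-0.2211 to 0.005299 in the gastrocnemius and -0.1285 to 0.02368 in the quadriceps, with a mouse left out), Lmnb1 (-0.2087, gastrocnemius, largest bin) and Pcna (quadriceps, -0.01302 with the largest bin and -0.08777 to 0.1004 with a mouse left out). The cause was not tested.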
